A study of Mus musculus with 8 samples.

Results

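The genes described here are 8 genes of the p53 pathway and of the cyclin-dependent kinase (CDK) inhibitor families, Trp53, Cdkn2a, Cdkn2b, Cdkn1a, Cdkn1b, Mdm2, Ccng1 and Bax, out of 27775 gene rows. Their rows were taken by symbol from 2 tables of single-cell RNA counts, and all 8 were found in both tables. Each table holds the cells of 1 tumor from a KPC mouse, labelled medium size (library Y00029) or large size (library Y00087). KPC mice carry LSL-Trp53R172H/+ and Pdx-1-Cre among their alleles, so that Cre driven by Pdx-1 removes a stop cassette and switches on mutant Trp53 in cells of pancreatic origin, while macrophages and stromal cells keep the cassette. Both mice were untreated, and no tumor without these alleles was used for comparison. The tumors were pancreatic ductal adenocarcinomas, dissociated to single cells and captured with the 10x Genomics Chromium 3′ v2 chemistry. The question was how these genes differ between the epithelial tumor cells, the macrophages and the stromal cells of the same tumor.

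The p53 protein is a transcription factor that is held low by the ubiquitin ligase Mdm2 and is stabilised after DNA damage or oncogene activity. Its targets include Cdkn1a (p21), which stops CDKs, Mdm2 itself, Ccng1 (cyclin G1) and Bax, which opens the outer mitochondrial membrane in apoptosis. The Cdkn2a locus makes p16Ink4a, an inhibitor of CDK4 and CDK6, and p19Arf, an inhibitor of Mdm2, and loss of this locus or of p53 function is a common step in pancreatic cancer.

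The upstream sequences of Cdkn1a, Ccng1 and Bax are shown because they hold a match to the consensus of the DNA element through which p53 can bind. The levels of these targets are also reported here. Each is the 250 bases before a RefSeq transcription start, on the strand of the gene, in the GRCm38.p6 assembly. Capitals mark matches to the p53 response element, a pair of 10-base sites that may be up to 13 bases apart.
Cdkn1a upstream, chr17:29090729-29090978, plus strand: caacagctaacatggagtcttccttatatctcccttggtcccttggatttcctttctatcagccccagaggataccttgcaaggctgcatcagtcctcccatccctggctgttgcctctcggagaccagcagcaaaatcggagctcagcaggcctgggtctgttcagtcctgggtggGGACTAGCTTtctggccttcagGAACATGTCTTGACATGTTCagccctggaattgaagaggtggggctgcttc
Ccng1 upstream, chr11:40755287-40755536, minus strand: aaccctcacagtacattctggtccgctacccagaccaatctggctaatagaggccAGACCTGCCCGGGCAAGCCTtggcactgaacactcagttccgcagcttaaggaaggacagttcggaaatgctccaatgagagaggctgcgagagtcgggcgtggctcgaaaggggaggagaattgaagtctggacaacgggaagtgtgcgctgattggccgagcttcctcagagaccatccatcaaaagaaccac
Bax upstream, chr7:45466899-45467148, minus strand: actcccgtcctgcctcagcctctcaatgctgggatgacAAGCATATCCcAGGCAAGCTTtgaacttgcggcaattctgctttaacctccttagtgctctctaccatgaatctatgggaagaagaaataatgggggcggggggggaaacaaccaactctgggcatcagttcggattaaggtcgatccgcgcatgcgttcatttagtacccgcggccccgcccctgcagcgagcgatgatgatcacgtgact

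In Cdkn1a, 2 overlapping pairs of sites matched. The first, with 1 mismatch over 20 letters and no spacer, lay 51 to 32 bases before the start, and the second, with 0 mismatches and a spacer of 12 bases, lay 73 to 42 bases before it. In Ccng1 the element lay 195 to 176 bases before the start with 1 mismatch and no spacer, and in Bax 212 to 192 bases before it with 1 mismatch and a spacer of 1 base. The consensus of the element reads the same on both strands, so that both were covered. At most 1 mismatch was allowed, and 295 of all 32851 RefSeq promoters of the same length (0.898%) held such an element. The other upstream windows of the members, those of Trp53, Mdm2, Cdkn1b, Cdkn2b, both starts of Cdkn2a and the other start of Cdkn1a, held none. Of 35 promoters of 24 further p53 target genes listed below, 2 held one. A match in such a window is a description of letters, not of binding, which was not measured.

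By the GENCODE M21 annotation of GRCm38, the build of the deposited tables (mm10), Trp53 lies at chr11:69580359-69591873 on the plus strand. Cdkn2a, at chr4:89274471-89294653, and Cdkn2b, at chr4:89306299-89311039, are neighbours on the minus strand, 11645 bases apart. The 2 coding transcripts of Cdkn2a, for p19Arf and p16Ink4a, start 12461 bases apart, but their 3′ ends lie within 70 bases of each other. Because the 3′ chemistry reads the end of the transcript, a UMI of Cdkn2a cannot be given to either protein, and a UMI of Trp53 cannot be given to the mutant or the wild-type allele. Cdkn1a lies at chr17:29090976-29100727 and Cdkn1b at chr6:134920401-134925513, both on the plus strand. Mdm2, at chr10:117688875-117710758, Ccng1, at chr11:40748552-40755311, and Bax, at chr7:45461697-45466898, lie on the minus strand. Bax overlaps Gm45808 on its own strand and Cdkn1a overlaps AC167363.2 on the opposite strand, and the sources used here do not give how reads in such overlaps were counted, so the levels of Bax and Cdkn1a are uncertain to that extent.

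The medium tumor had 2812 cells and 20301669 UMIs (unique molecular identifiers, each standing for a captured mRNA molecule), and the large tumor 1533 cells and 2239012 UMIs. The median cell held 5456.5 UMIs in the medium tumor and 1037 in the large tumor. The tables share 5 cell barcodes. Each table pools 4 technical replicates that are not told apart, so that each tumor counts as 1 sample. No test between tumors was possible, and none between cell classes was run, as these could be paired over only 2 tumors. Levels are given as CPM, the UMIs of a gene per 1000000 UMIs of a group of cells, with exact 95% Poisson intervals in parentheses that cover counting error only. A sum over a class cannot tell apart more cells with the transcript from more transcript per cell, so shares of cells are also given.

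Cells were clustered in each tumor without the 8 members, and the clusters were named from marker genes. In the medium tumor, carcinoma cells were 8 epithelial clusters with 2329 cells, macrophages 2 clusters with 238 cells, and stromal cells 1 cluster led by fibroblast genes with 67 cells. In the large tumor, 5 epithelial clusters with 682 cells were carcinoma cells, 253 cells were macrophages and 50 were stromal cells, while 2 epithelial clusters led by intestinal genes (262 cells) were kept apart. The 11 epithelial markers, such as Krt8 and Cldn7, summed to 11540 CPM in the carcinoma cells of the medium tumor, 664 CPM in its macrophages and 1277 CPM in its stromal cells. The 11 macrophage markers summed to 32537 CPM in the macrophages and 395 CPM in the carcinoma cells, and the 10 fibroblast markers to 15125 CPM in the stromal cells and 36.9 CPM in the carcinoma cells. In the large tumor the same 3 sums were 4663, 23422 and 15716 CPM in their own classes. With cells classed one by one from their own markers, 98.1% of the carcinoma cells of the medium tumor kept that class. In the large tumor 75.8% did. No mutation was read in the cells, so normal duct or stomach-like epithelium among the carcinoma cells cannot be told apart, and the carcinoma label rests on epithelial markers in a tumor sample.

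Trp53, which encodes p53, was higher in carcinoma cells than in macrophages of the medium tumor. Its level there was 92.0 CPM (87.6 to 96.5, 1663 UMIs) in carcinoma cells, 28.2 CPM (18.4 to 41.4, 26 UMIs) in macrophages and 42.2 CPM (23.1 to 70.8, 14 UMIs) in stromal cells. The intervals of macrophages and stromal cells overlapped, and that of the carcinoma cells lay above both. The carcinoma level was 3.26 times (2.21 to 5.0) that of macrophages and 2.18 times (1.30 to 4.00) that of stromal cells. At least 1 UMI of Trp53 was seen in 41.2% of the carcinoma cells, 9.66% of the macrophages and 17.9% of the stromal cells. With cells given a class one by one from their own markers, the ratio to macrophages was 1.93. With each cell thinned to 2500 UMIs, since the median carcinoma cell held 5980 and the median macrophage 3516, these shares were 19.8%, 6.72% and 11.9%. The large tumor had 20.5 CPM (13.4 to 30.02, 26 UMIs) of Trp53 in carcinoma cells, against 1 UMI in macrophages and 1 UMI in stromal cells, and the ratios of 4.02 times (0.660 to 165) and 1.40 times (0.229 to 57.2) had intervals that included 1. The first ran from 1.34 with a free RNA level taken off to 9.05 as a mean over the CPM of single cells.

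Cdkn2a was the member with the widest gap in favour of carcinoma cells in the medium tumor. It had 360.3 CPM (352 to 369, 6516 UMIs) in carcinoma cells, 41.3 CPM (29.2 to 56.7, 38 UMIs) in macrophages and 142 CPM (104 to 188, 47 UMIs) in stromal cells, and none of the intervals overlapped. The carcinoma level was 8.73 times (6.35 to 12.3) that of macrophages and 2.55 times (1.91 to 3.47) that of stromal cells. With cells classed one by one the ratio to macrophages was 3.08. A UMI of Cdkn2a was found in 68.1% of the carcinoma cells, 12.2% of the macrophages and 35.8% of the stromal cells, and in 49.2%, 8.40% and 28.4% after thinning. The large tumor showed the same order, with 156 CPM (135 to 179, 198 UMIs) in carcinoma cells, 20.4 CPM (5.56 to 52.2, 4 UMIs) in macrophages and 29.3 CPM (3.55 to 106, 2 UMIs) in stromal cells. There the carcinoma level was 7.65 times (2.94 to 28.4) that of macrophages and 5.32 times (1.45 to 44.2) that of stromal cells, the latter from 2 stromal UMIs, and macrophages and stromal cells overlapped in their intervals. With thinned cells the ratio to macrophages was 16.7, where only 1 of the 253 macrophages still held a UMI of Cdkn2a.

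Cdkn2b encodes p15Ink4b, an inhibitor of CDK4 and CDK6 next to Cdkn2a. Its level in the medium tumor was 88.3 CPM (84.0 to 92.7, 1596 UMIs) in carcinoma cells, 14.1 CPM (7.52 to 24.1, 13 UMIs) in macrophages and 75.3 CPM (48.7 to 111, 25 UMIs) in stromal cells. Macrophages were low, and the intervals of carcinoma and stromal cells overlapped, with a ratio of 1.17 (0.791 to 1.82). Carcinoma cells held 6.25 times (3.64 to 11.8) the macrophage level, which became 3.64 times at a clustering resolution of 0.4 and 10.5 times with a free RNA level taken off. For the large tumor the level of Cdkn2b was 97.7 CPM (81.3 to 116, 124 UMIs) in carcinoma cells and 73.4 CPM (23.8 to 171, 5 UMIs) in stromal cells. Macrophages of the large tumor had 0 UMIs, which allows up to 15.3 CPM at 3 counts, so that carcinoma cells were at least 6.39-fold higher at that floor. The exact 95% lower limit of the ratio was 5.12, and the floor gave 3.71-fold with thinned cells. A UMI of Cdkn2b was found in 36.1% of the carcinoma cells and 3.78% of the macrophages of the medium tumor, and in 13.9% of the carcinoma cells and 0 of the 253 macrophages of the large tumor.

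Epithelial markers were also counted in the other classes, and their part in the levels of the members there was not tested. The 11 epithelial markers were present in the macrophages of the medium tumor at a median of 6.46% of their carcinoma level (4.96% to 10.7%) and in its stromal cells at 14.96% (6.37% to 27.3%). Cdkn2a stood at 11.5% of its carcinoma level in macrophages and 39.3% in stromal cells, and Cdkn2b at 16.0% and 85.3%. For Trp53 these shares were 30.7% and 45.9%. All of these lay above the highest epithelial marker in the same class, though Cdkn2a in macrophages only by 11.5% against 10.7%. In the macrophages of the large tumor the markers had a median of 4.33% (0 to 18.1%), and Cdkn2a stood at 13.1%, inside that range. In its stromal cells the markers had a median of 13.5% (0 to 28.7%), and Cdkn2a at 18.8% and Cdkn1a at 27.4% of their carcinoma levels also lay inside the range, each on 2 stromal UMIs. The ratio of Cdkn2a between carcinoma cells and macrophages of the medium tumor was 20.04 in place of 8.73 once the share of the median marker was taken off, a setting added with the values in view.

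Cdkn1a, the p53 target that encodes the CDK inhibitor p21, was highest in macrophages. In the medium tumor its level was 179 CPM (173 to 185, 3239 UMIs) in carcinoma cells, 745 CPM (690.4 to 803, 686 UMIs) in macrophages and 148 CPM (109 to 195, 49 UMIs) in stromal cells. Macrophages held 4.16 times (3.83 to 4.52) the level of carcinoma cells, while carcinoma and stromal cells differed by 1.21 times with an interval that included 1 (0.916 to 1.64). A UMI of Cdkn1a was found in 81.9% of the macrophages and 47.5% of the carcinoma cells, although the macrophages held fewer UMIs per cell, and in 74.4% and 28.8% after thinning. Macrophages of the large tumor had 403 CPM (319 to 502, 79 UMIs) against 107 CPM (89.9 to 127, 136 UMIs) in carcinoma cells, a gap of 3.76 times (2.81 to 4.99). Stromal cells of the large tumor had 2 UMIs, or 29.3 CPM (3.55 to 106), and the carcinoma level was 3.65 times (0.992 to 30.5) theirs, an interval that included 1, with 1.03 times for thinned cells and 6.87 times for cells classed one by one.

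Cdkn1b encodes p27Kip1, which holds cyclin E and CDK2 inactive and is set largely by protein breakdown. It was seen in few UMIs, with 13.8 CPM (12.1 to 15.6, 249 UMIs) in carcinoma cells, 5.43 CPM (1.76 to 12.7, 5 UMIs) in macrophages and 18.1 CPM (6.63 to 39.3, 6 UMIs) in stromal cells of the medium tumor. Carcinoma cells held 2.54 times (1.07 to 7.88) the macrophage level, and the stromal ratio of 0.762 (0.345 to 2.10) included 1. At a clustering resolution of 0.4 the macrophage ratio was 1.70, and with thinned cells 5.21. The large tumor had 14 UMIs of Cdkn1b in carcinoma cells and 0 in macrophages and stromal cells, too few to set a ratio.

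Mdm2, the ubiquitin ligase that breaks down p53 and is its target in turn, was the member most raised in macrophages. The medium tumor had 46.3 CPM (43.3 to 49.6, 838 UMIs) in carcinoma cells, 333 CPM (297 to 373, 307 UMIs) in macrophages and 75.3 CPM (48.7 to 111, 25 UMIs) in stromal cells. Macrophages held 7.20 times (6.29 to 8.21) and stromal cells 1.63 times (1.05 to 2.42) the level of carcinoma cells. The stromal gap was 1.01 times with thinned cells and 2.33 times with cells classed one by one. Macrophages of the large tumor had 474 CPM (383 to 581, 93 UMIs), its carcinoma cells 46.5 CPM (35.4 to 60.0, 59 UMIs) and stromal cells 44.0 CPM (9.08 to 129, 3 UMIs), and macrophages held 10.2 times (7.28 to 14.4) the level of carcinoma cells. A UMI of Mdm2 was found in 60.9% of the macrophages and 27.1% of the carcinoma cells of the medium tumor, and in 25.3% and 8.21% of those of the large tumor. The ratio of carcinoma to stromal cells of the large tumor was 1.06 times (0.344 to 5.27), on 3 stromal UMIs.

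Ccng1 and Bax, also p53 targets, differed less between the classes. Ccng1 had 26.9 CPM (24.6 to 29.4, 487 UMIs) in carcinoma cells, 42.4 CPM (30.1 to 57.9, 39 UMIs) in macrophages and 48.2 CPM (27.5 to 78.3, 16 UMIs) in stromal cells of the medium tumor. Both other classes were above carcinoma cells, macrophages by 1.57 times (1.10 to 2.18) and stromal cells by 1.79 times (1.01 to 2.94), within 2-fold. Bax had 207 CPM (200.1 to 213, 3738 UMIs) in carcinoma cells, 259.6 CPM (228 to 295, 239 UMIs) in macrophages and 169 CPM (127 to 219, 56 UMIs) in stromal cells, and macrophages were 1.26 times (1.10 to 1.43) the carcinoma level. The ratios of carcinoma cells to macrophages in the large tumor were 0.653 (0.310 to 1.54) for Ccng1 and 0.805 (0.490 to 1.39) for Bax, both with intervals that included 1.

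**Figure D1:**
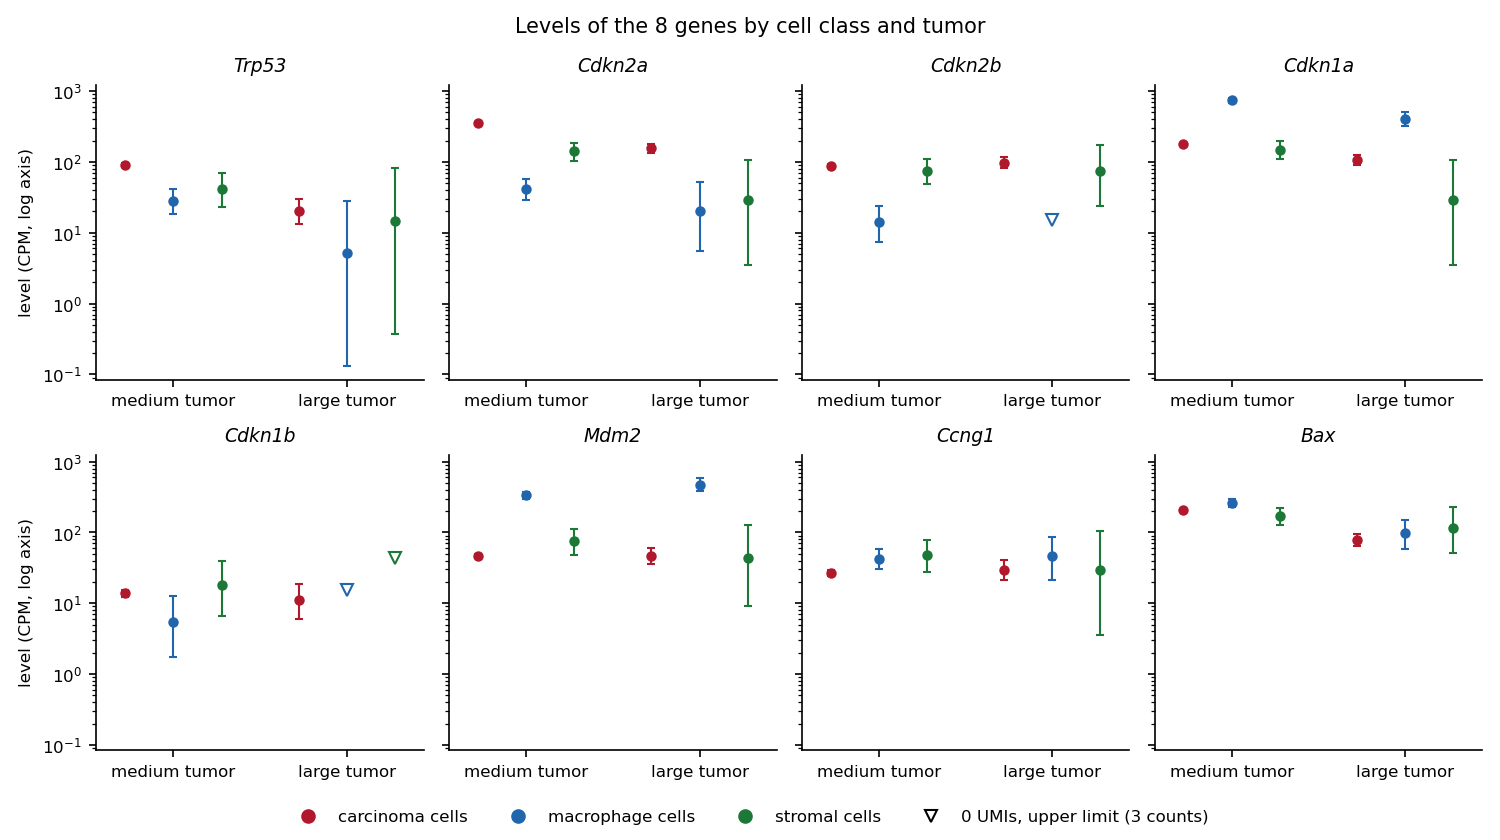
Levels of the 8 genes in CPM on a log axis, 1 panel a gene, in carcinoma cells, macrophages and stromal cells of the medium and the large tumor. Points are summed UMIs over a class, bars are exact 95% Poisson intervals, and open triangles are the upper limit where a class had 0 UMIs. In both tumors Cdkn2a and Cdkn2b were lower in macrophages than in carcinoma cells, and Cdkn1a and Mdm2 were higher.

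Counted together, 6 of the 8 members were at least 2-fold apart between carcinoma cells and macrophages of the medium tumor. Of these, 4 were higher in carcinoma cells (Trp53, Cdkn2a, Cdkn2b and Cdkn1b) and 2 were lower (Cdkn1a and Mdm2). Among the 11652 genes with at least 20 UMIs in these classes together, 40.2% were as far apart, 28.1% higher and 12.1% lower. The median of all these genes was itself 0.42 higher in carcinoma cells on the log2 scale. Relative to that median, the carcinoma level was 6.51 times that of macrophages for Cdkn2a, 4.66 times for Cdkn2b, 2.43 times for Trp53 and 1.89 times for Cdkn1b. On the same footing macrophages were 9.65 times higher for Mdm2, 5.58 times for Cdkn1a, 2.11 times for Ccng1 and 1.68 times for Bax, so that Ccng1 passed and Cdkn1b missed 2-fold. Cdkn1b rested on 5 macrophage UMIs. With TMM scaling of the classes, which left 2477 genes higher and 1838 lower in place of 3276 and 1410, the counts of members remained 4 and 2. Trp53 fell under 2-fold with cells classed one by one, at 1.93, and Cdkn1b at resolution 0.4, at 1.70.

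Of the 7 members with enough UMIs in the large tumor, 5 were at least 2-fold apart from macrophages, 3 higher (Trp53, Cdkn2a and Cdkn2b) and 2 lower (Cdkn1a and Mdm2), where 39.0% of 6232 genes were as far apart, 27.7% higher and 11.3% lower. The median of all genes was 0.38 higher on the log2 scale. The 3 higher members passed the minimum of 20 UMIs through carcinoma cells, with 1, 4 and 0 macrophage UMIs in the order named. The ratio of Trp53 had an interval that included 1 and was 1.34 with a free RNA level taken off, so that it was then not past 2-fold. Relative to the median, Cdkn2a was 5.86 times higher in carcinoma cells, and Mdm2 and Cdkn1a 13.3 and 4.90 times higher in macrophages.

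Against stromal cells of the medium tumor, 2 of the 8 members were at least 2-fold higher in carcinoma cells (Trp53 and Cdkn2a) and 0 lower, where 34.5% of 10852 genes were as far apart, 16.9% higher and 17.6% lower. With all cells thinned to 2500 UMIs, these ratios were 1.52 for Trp53 and 1.90 for Cdkn2a, so that 0 members passed 2-fold, and with a free RNA level taken off 3.24 and 4.11. Against the 50 stromal cells of the large tumor, 2 of 7 members passed 2-fold higher (Cdkn2a and Cdkn1a), where 30.7% of 5160 genes were as far apart, 16.3% higher and 14.4% lower. With these cells thinned to 500 UMIs, Cdkn2a had a ratio of 1.65, and 0 of the 4 members that kept enough UMIs passed.

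**Figure D2:**
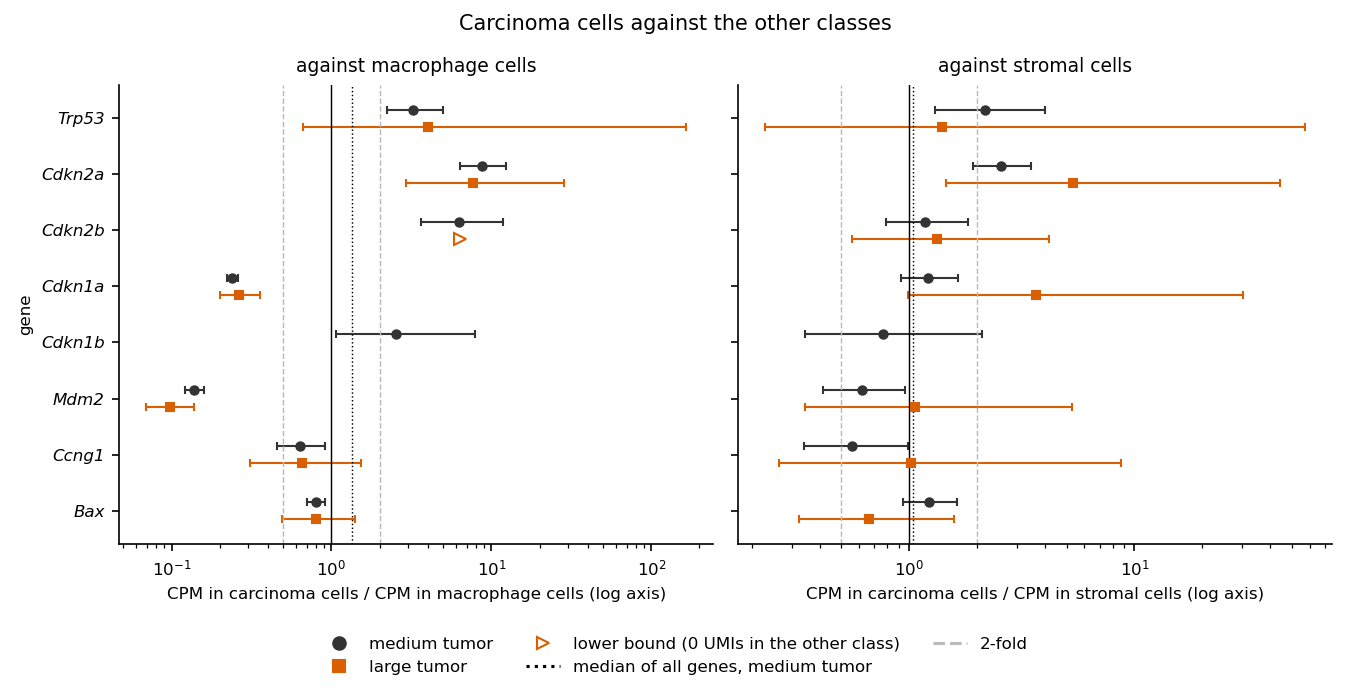
Ratio of the CPM in carcinoma cells to the CPM in macrophages (left) and in stromal cells (right), on log axes, for each gene. Bars are exact conditional 95% intervals, which cover counting error only. The dotted line is the median of all genes in the medium tumor and the dashed lines mark 2-fold. Mdm2 and Cdkn1a lie to the left of 1 against macrophages in both tumors, and Cdkn2a to the right of it in all 4 comparisons.

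The members also varied among the 8 carcinoma clusters of the medium tumor, each named here by its leading genes. Cluster 1 was led by Gkn1 and Gkn2, cluster 2 by Mcpt8, Cldn6 and Hmga2, cluster 3 by mitotic genes such as Ube2c and Top2a, and cluster 4 by Tff3, Ly6d and Reg1. Cluster 5 was led by Yap1, Cldn18 and Birc2, cluster 6 by Dmbt1, Lcn2 and Sftpd, cluster 7 by Krt17, Cldn4 and Tnc, and cluster 8 by Inhba and Bmp2. Cluster 8 had only 3 of the 11 epithelial markers, and clusters 1 and 4 had more markers of another class than epithelial markers among their 10 leading genes.

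Cdkn2a spanned the widest range, 13.9-fold, from 41.2 CPM (31.1 to 53.5) in cluster 6 and 75.8 CPM (62.9 to 90.5) in cluster 4 to 574 CPM (539 to 611) in cluster 7. The clusters were formed without the members among their genes. Between the extremes lay cluster 1 at 257 CPM, cluster 3 at 405, cluster 8 at 423, cluster 2 at 435 and cluster 5 at 493. Clusters 3, 8 and 2 overlapped in their intervals, while clusters 6, 4, 1, 5 and 7 stood apart from their neighbours. The level in cluster 6 was close to that of the macrophages of the same tumor, 41.3 CPM (29.2 to 56.7).

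Cdkn2b went from 27.2 CPM (19.1 to 37.5) in cluster 6 to 241 CPM (219 to 266) in cluster 7. Clusters 1, 4, 3 and 5 lay between 49.2 and 64.3 CPM, cluster 2 at 106 and cluster 8 at 147. Both neighbours at this locus had their lowest level in cluster 6 and their highest in cluster 7. They differed in cluster 5, which had the next to highest Cdkn2a but Cdkn2b close to the median over clusters of 61.7 CPM.

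Cdkn1a split the clusters differently. It had 572 CPM (532 to 613) in cluster 6 and 465 CPM (434 to 498) in cluster 7, then 218 CPM (198 to 241) in cluster 8. The other 5 clusters lay between 77.6 CPM in the mitotic cluster 3 and 119 CPM in cluster 1, with intervals that overlapped between all neighbours, so that cluster 3 was not set apart as the lowest. Its 2 highest levels were thus found in the cluster with the lowest Cdkn2a and in the cluster with the highest.

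Trp53 ranged from 51.3 CPM (40.8 to 63.7) in cluster 4 and 52.2 CPM (40.8 to 65.8) in cluster 6 to 119 CPM (107 to 131) in cluster 3 and 135 CPM (118 to 153) in cluster 7. The intervals of clusters 4 and 6 overlapped, and so did those of clusters 3 and 7. Mdm2 ranged from 32.0 CPM (26.4 to 38.6) in cluster 3 to 86.6 CPM (73.3 to 102) in cluster 7, with 63.7 CPM (52.8 to 76.2) in cluster 8 and 58.1 CPM (46.0 to 72.4) in cluster 6. Ccng1 had 90.6 CPM (77.0 to 106) in cluster 7 and 49.5 CPM (39.2 to 61.7) in cluster 4, against 13.9 to 32.3 CPM in the other clusters, and cluster 7 alone stood apart from its neighbour. Bax ranged from 122 CPM (104 to 142) in cluster 6 to 332 CPM (306 to 360.2) in cluster 7, and the other 6 clusters lay between 172 and 231 CPM. Cdkn1b lay between 8.77 and 18.4 CPM, with intervals that overlapped between all neighbours.

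Cluster 7 had the highest level of 6 members, Trp53, Cdkn2a, Cdkn2b, Mdm2, Ccng1 and Bax, and the next to highest of Cdkn1a, although for Trp53 and Mdm2 its interval overlapped that of the next cluster. Against the other carcinoma clusters, 4 of the 8 members were at least 2-fold higher there, and 0 lower, where 11.0% of 12040 genes were higher and 9.53% lower (20.5% in all). These were Ccng1 by 4.50 times (3.70 to 5.46), Cdkn2b by 3.36 times (3.00 to 3.76), Cdkn1a by 3.13 times (2.89 to 3.39) and Mdm2 by 2.06 times (1.72 to 2.46). Relative to the median of all genes, Mdm2 was 1.83 times higher and missed 2-fold. In cluster 6, Cdkn1a was higher by 3.89 times (3.58 to 4.21), where 12.5% of genes were at least 2-fold higher. Cdkn2a was lower there by 9.39 times (7.22 to 12.4) and Cdkn2b by 3.43 times (2.48 to 4.89), where 12.3% of genes were at least 2-fold lower, or 24.8% in all. In cluster 4, Cdkn2a was lower by 5.12 times (4.28 to 6.18), where 13.4% of genes were lower, 6.98% higher and 20.3% either. The remaining clusters each had 0 to 2 members at least 2-fold lower and none higher: Ccng1 in cluster 1 (10.2% of genes lower, 3.99% higher, 14.1% either), Cdkn1a in cluster 2 (10.4% lower, 1.52% higher, 11.9% either) and in cluster 5 (15.2% lower, 2.18% higher, 17.4% either), and Cdkn1a and Ccng1 in cluster 3 (12.6% lower, 4.98% higher, 17.6% either). Relative to the median of all genes, the gaps of Ccng1 were 1.98 times in cluster 1 and 1.94 times in cluster 3 and that of Cdkn1a 1.86 times in cluster 5, all under 2-fold, while Ccng1 in cluster 4 was 2.23 times higher and passed it. Cluster 8 had 0 members apart, where 9.23% of genes were higher and 13.6% lower, 22.9% in all.

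**Figure D3:**
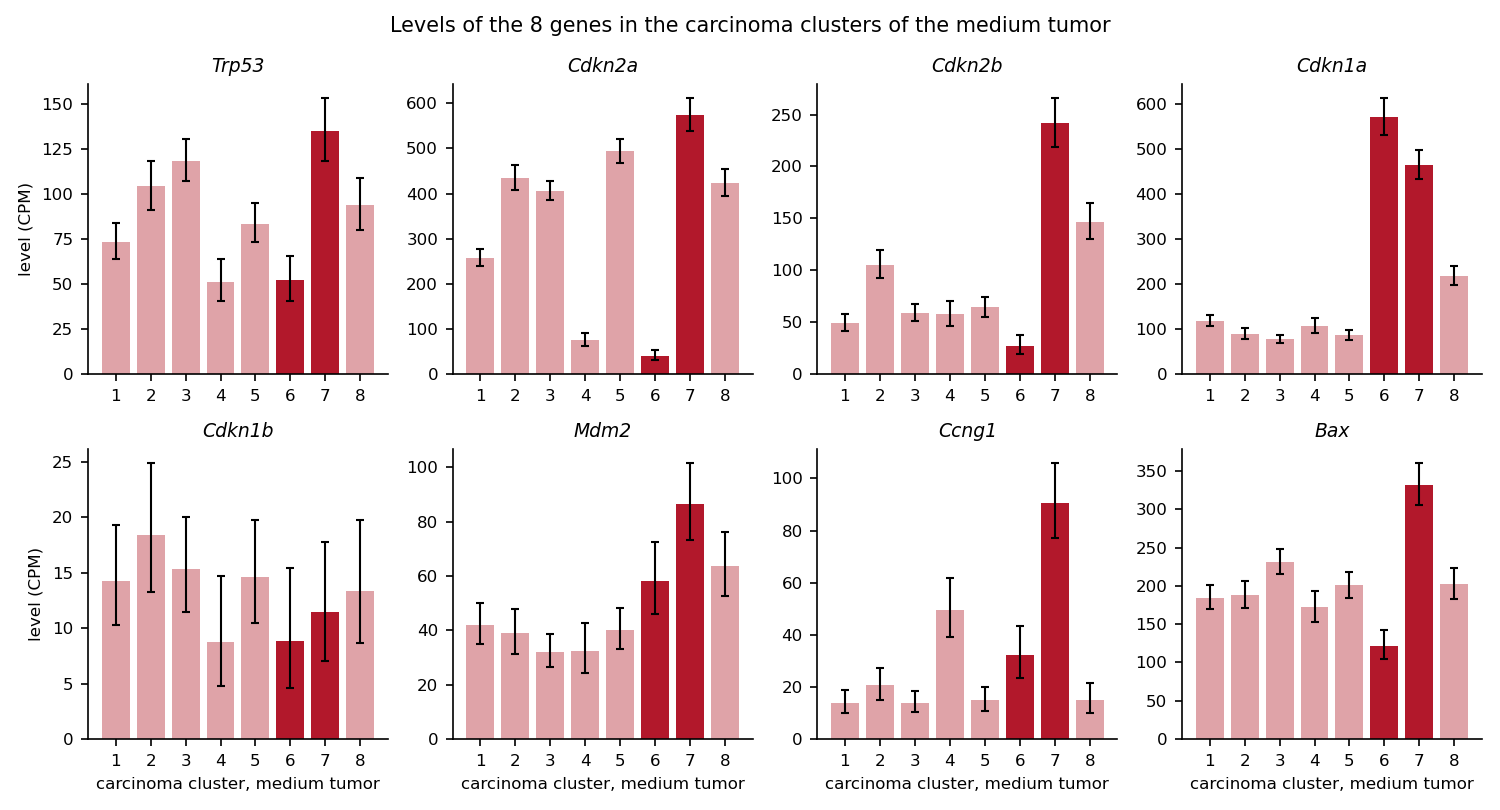
Levels of the 8 genes in CPM, on axes that start at 0, in the 8 carcinoma clusters of the medium tumor. Bars are summed UMIs, whiskers are exact 95% Poisson intervals, and clusters 6 and 7 are drawn darker. Cdkn1a was high in clusters 6 and 7, while Cdkn2a was lowest in cluster 6 and highest in cluster 7.

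The shallower large tumor gave a coarser view. Cdkn2a had 213 CPM (178 to 254) in the mitotic cluster 5, 150 CPM (103 to 211) in cluster 3 and 121 CPM (84.7 to 167) in cluster 6, which was led by Gkn2. Cluster 7, led by Lgals2 and Dmbt1, had 1 UMI of Cdkn2a and 0 of Trp53 in 107 cells, which allows Trp53 up to 22.6 CPM at 3 counts. Cdkn1a was lowest in the mitotic cluster 5, at 46.7 CPM (31.0 to 67.4), and reached 168 CPM in cluster 3 and 161 CPM in cluster 6. Its highest level, 323 CPM (119 to 704), rested on 6 UMIs in the 17 cells of cluster 10, which had 0 UMIs of Cdkn2a and Cdkn2b, where 0 allows up to 162 CPM. Cluster 10 was led by Upk3a, Sprr2f and Ly6d. Cluster 3, with 228 cells and a median of 819 UMIs per cell, had Onecut2, Xist and Malat1 among its leading genes.

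The other genes of the pathway were taken from gene lists that were not left out of clustering, so their counts per cluster are descriptions. Of 32 further p53 targets, 31 had enough UMIs in cluster 7, and 10 were at least 2-fold higher and 0 lower there, with a median of 0.61 on the log2 scale against 0.17 for all genes (of which 11.0% were higher and 9.53% lower). Among them were Trp53inp1, which promotes p53 activity and autophagy, at 4.34 times (3.50 to 5.35), Gadd45a, a DNA damage response gene, at 4.11 times (3.64 to 4.62), and Zmat3, an RNA-binding target of p53, at 3.47 times (2.51 to 4.75) the level of the other clusters. In cluster 6, 8 of 31 targets were higher and 1 lower (12.5% and 12.3% of all genes), with Gdf15 at 3.44 times, Trp53inp1 at 3.22 times and Plk3 at 2.93 times the level elsewhere. In cluster 4, 1 was higher and 8 lower (6.98% and 13.4% of all genes), with Pmaip1, the apoptosis gene for Noxa, lower by 4.27 times (3.07 to 6.11). Summed over the 32 targets, the level was 2775 CPM in cluster 7 and 2232 CPM in cluster 6, against 1399 to 1936 CPM in the other 6 clusters.

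Among the carcinoma clusters, mitotic transcripts were highest in cluster 3, where the 17 mitotic genes listed summed to 1951 CPM, and macrophage cluster 13 of the same tumor reached 2679 CPM (2451 to 2923). Against all other carcinoma clusters, cluster 3 included, all 17 were at least 2-fold lower in each of clusters 5, 6, 7 and 8, 16 in clusters 1 and 2, and 4 in cluster 4. Of all genes, 15.2%, 12.3%, 9.53% and 13.6% were lower in clusters 5, 6, 7 and 8. The shares were 10.2%, 10.4% and 13.4% in clusters 1, 2 and 4. Their sum was 41.2 CPM (31.1 to 53.5) in cluster 6, 39.0 CPM (30.3 to 49.4) in cluster 7 and 51.9 CPM (42.1 to 63.4) in cluster 8, which overlapped, and 74.9 to 308 CPM in clusters 1, 2, 4 and 5. Cluster 3 was among the clusters compared with, so the counts for clusters 4, 6 and 7 were also taken without cluster 3, a choice made with the values in view. Of the mitotic genes with enough UMIs, 7 of 13 were then lower in cluster 6 and 10 of 14 in cluster 7, while in cluster 4 all 14 were higher, where 6.60% of all genes were. Then 8 of 30 p53 targets were higher and 0 lower in cluster 7 (9.63% and 8.36% of all genes), and 6 were higher and 2 lower in cluster 6 (10.9% and 11.6%). With cluster 3 again among the other clusters, 1 of the 4 other CDK inhibitors, Cdkn1c (p57Kip2), was higher in cluster 7 by 6.25 times (4.71 to 8.24) and 2 were lower. Cdkn2c had 1 UMI there against 243 in the other clusters, a gap of 25.9 times (4.61 to 1029), and Cdkn3 had 0 UMIs, at least 5.66-fold lower at 3 counts. Both were higher in cycling cells, most of which were in cluster 3, and their gaps were not measured without that cluster. Mtap, which lies beside Cdkn2a, was higher in cluster 7 by 2.19 times (1.82 to 2.63) and lower in cluster 6 by 2.55 times (1.70 to 4.00), the same directions as Cdkn2a and Cdkn2b.

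Cycling carcinoma cells of the medium tumor, those with at least 3 of the 17 mitotic genes after thinning, numbered 210, of which 183 were in cluster 3. Cdkn1a was the only member at least 2-fold apart, where 15.5% of 12092 genes were, 4.69% higher and 10.8% lower. Its level was 71.7 CPM in cycling cells and 194 CPM in the other 2119, or 2.71 times (2.31 to 3.20) lower. Within cluster 3 alone it had 67.7 CPM in the 183 cycling cells and 91.7 CPM in the other 109, a narrower gap. Trp53 was 1.33 times (1.16 to 1.51) and Bax 1.201 times (1.09 to 1.32) the level of the other cells. Cdkn2a had 375 and 358 CPM in cycling and other cells, a ratio of 1.05 times (0.972 to 1.13). Cdkn2b had a ratio of 0.694 times (0.580 to 0.825), Mdm2 0.673 times (0.522 to 0.857) and Ccng1 0.631 times (0.445 to 0.873), and Cdkn1b 1.39 times (0.969 to 1.95). Of the 4 other inhibitors, 3 were higher in cycling cells: Cdkn2c (p18Ink4c) by 3.07 times (2.30 to 4.06), Cdkn2d (p19Ink4d) by 3.595 times (2.95 to 4.37) and Cdkn3, a phosphatase that acts on CDKs, by 10.2 times (7.36 to 14.2). The median cycling cell held 8755.5 UMIs and the median other cell 5786.

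**Figure D4:**
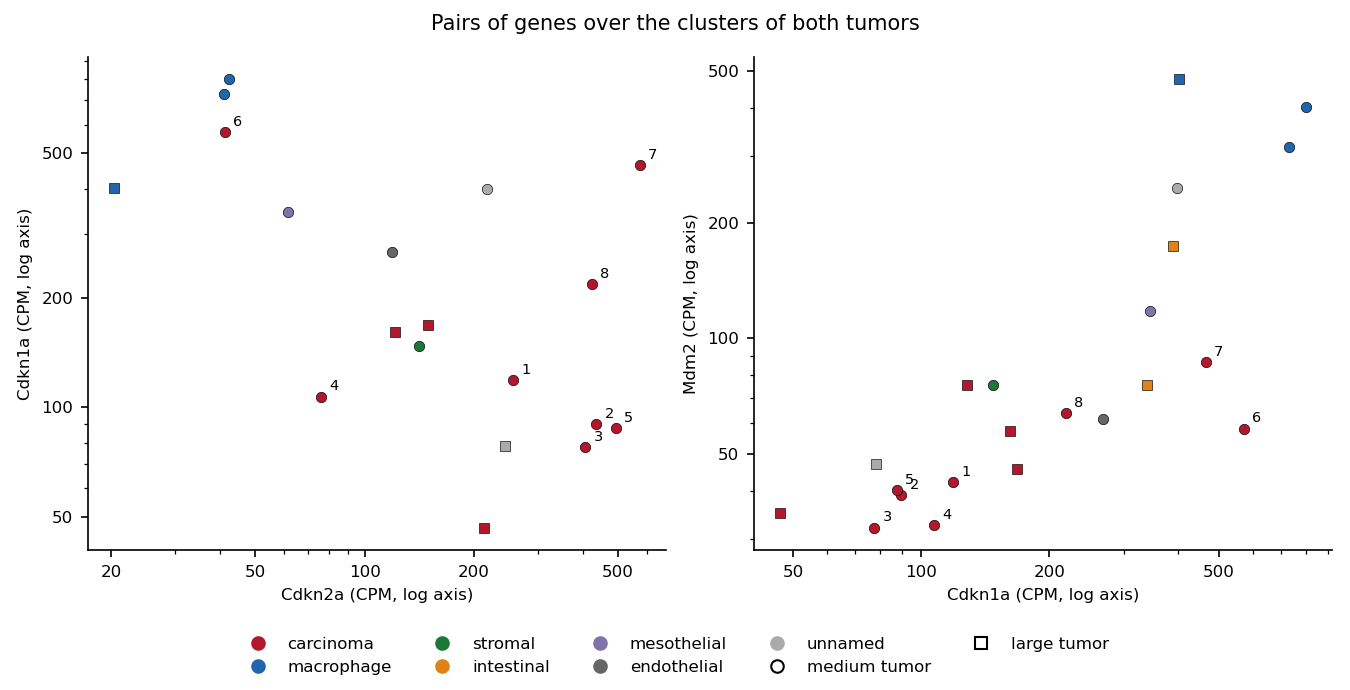
Levels in CPM on log axes over the clusters of both tumors, for Cdkn2a against Cdkn1a (left, 19 of 25 clusters) and Cdkn1a against Mdm2 (right, 22 of 25). Each point is a cluster with at least 3 UMIs of both genes, coloured by class, and numbers mark the carcinoma clusters of the medium tumor. Cluster 6 lies beside the macrophages on the left, with low Cdkn2a and high Cdkn1a, but below them on the right, with Mdm2 at 58.1 CPM against 316 to 474 CPM in macrophage clusters.

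Between tumors, carcinoma cells were set side by side with the caution that each size is 1 mouse. Of the 8 members, 3 were at least 2-fold higher in the medium tumor and 0 lower, where 28.1% of 11859 genes were as far apart, 21.3% higher and 6.79% lower. The median of all genes was 0.21 higher on the log2 scale. Trp53 was 4.49 times (3.05 to 6.89), Bax 2.65 times (2.17 to 3.27) and Cdkn2a 2.31 times (2.00 to 2.67) the level of the large tumor. Relative to the median these were 3.88, 2.29 and 1.996 times, so that Cdkn2a missed 2-fold and 2 of the 8 members passed. Without that centring, the Cdkn2a ratio was 1.86 with the members among the clustering genes and 1.99 with cells classed one by one. The intervals of Cdkn2b at 0.903 times (0.752 to 1.09), Mdm2 at 0.997 times (0.765 to 1.32), Ccng1 at 0.899 times (0.646 to 1.29) and Cdkn1b at 1.25 times (0.730 to 2.32) included 1, and Cdkn1a was 1.67 times (1.41 to 2.00) the level of the large tumor. As a mean over the CPM of single cells, Cdkn1b was 2.03 times higher in the medium tumor and passed 2-fold. The Cdkn2b ratio ran from 0.650 times, with the members among the clustering genes, to 1.14 times as a mean over single cells. Both ends lay outside its counting interval.

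Clusters 1 and 4 of the medium tumor and cluster 7 of the large tumor had a goblet marker, Agr2 or Tff3, but no epithelial marker among their 10 leading genes. Pairs of like clusters were also compared, and the first pair includes cluster 1 of the medium tumor. Between the clusters led by gastrokines, cluster 1 of the medium and cluster 6 of the large tumor, Trp53 was 2.73, Cdkn2a 2.13 and Bax 3.92 times higher in the medium tumor, 3 of 8 members, where 20.9% of 8507 genes were higher and 9.96% lower (30.8% in all). Relative to the median of all genes Cdkn2a was 1.92 times higher, which left 2 of 8 members past 2-fold. Between the mitotic clusters 3 and 5, Trp53 was 5.48 and Bax 2.31 times higher, where 20.8% of 9156 genes were, and Cdkn2b was 2.45 times lower, where 7.56% were (28.4% in all). Without clusters 1 and 4 of the medium tumor and cluster 7 of the large tumor, all other carcinoma cells together gave ratios of 4.41 for Trp53, 2.40 for Cdkn2a and 2.88 for Bax. Over the alternatives for all carcinoma cells, Trp53 was 3.64 to 7.73 times and Bax 2.52 to 3.12 times higher in the medium tumor. Depth per cell differed between the tumors together with these genes, and its part was not tested.

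Among the lists in the comparison of carcinoma cells with macrophages of the medium tumor, 9 of 31 p53 targets were higher and 6 lower, where 28.1% of all genes were higher and 12.1% lower, with a median of 0.21 on the log2 scale against 0.42 for all genes. The share higher was thus near that of all genes. Perp, a desmosome-associated target, had 224 CPM in carcinoma cells and 19.6 CPM in macrophages, and Phlda3, an inhibitor of Akt signalling, 113 and 15.2 CPM. Tnfrsf10b, a death receptor, had 271 UMIs against 1, a ratio of 13.8 times (2.46 to 547). Lower in carcinoma cells were the death receptor Fas by 7.17 times (4.24 to 11.7), the cytokine Gdf15 by 7.16 times (4.72 to 10.6) and the kinase Plk3 by 3.40 times (2.55 to 4.46). Of the 4 targets among the members, Cdkn1a and Mdm2 were at least 2-fold lower, while Ccng1 at 0.636 and Bax at 0.796 were within 2-fold.

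Of the 12 p53 regulators and relatives with enough UMIs in the medium tumor, 0 were 2-fold apart between carcinoma cells and macrophages, where 40.2% of all genes were, and their median was 0.18 on the log2 scale against 0.42. In the large tumor 1 of 7 was higher, Rpl5, a ribosomal protein that binds Mdm2, by 2.16 times (1.86 to 2.52), and the median was 0.70 against 0.38. In the axis on which the CDK inhibitors act, 4 of 15 genes were higher and 3 lower in carcinoma cells of the medium tumor, the former near the share of 28.1% over all genes and the latter beside 12.1%. Ccnd1 (cyclin D1) had 412 CPM against 80.4 CPM and Cdk4 297 against 126 CPM, while Rb1, the pocket protein that CDK4 phosphorylates, was lower by 2.76 times (1.72 to 4.24). In the large tumor 4 of 8 genes of the axis were higher and 1 lower, where 27.7% and 11.3% of all genes were. Of the 4 genes for the SCF complex that breaks down p27Kip1, 0 were 2-fold apart in the medium tumor. Of the 4 other CDK inhibitors, Cdkn1c was higher by 5.6 times (1.53 to 46.5), from 2 macrophage UMIs, and Cdkn2d lower by 2.32 times (1.72 to 3.08). Among 8 relatives of Bax in the BCL2 family, Bok was higher by 15.3 times (10.2 to 24.1), and the survival gene Mcl1 and the death gene Bcl2l11 were lower by 3.48 times (3.16 to 3.82) and 4.597 times (3.70 to 5.67). Mtap was higher by 3.95 times (2.13 to 8.26), and of the 17 mitotic genes 1, Mki67, was lower.

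Against stromal cells of the medium tumor, 5 of 28 p53 targets were higher and 4 lower, near the shares over all genes of 16.9% and 17.6%. Perp at 10.6 times, Epha2 at 6.43 times and Pmaip1 at 5.95 times were the highest, and Ak1, an adenylate kinase, was lower by 76.5 times (51.8 to 114). Ccnd1 and Cdk4 were higher there too, by 5.94 and 2.15 times, among 3 of 14 genes higher and 2 lower on that axis. Cdkn2c and Cdkn2d were lower, 2 of 3 other CDK inhibitors. Trp53bp1 (1 of 9 regulators, on 1 stromal UMI), Cks1b (1 of 4 genes of p27 breakdown) and Bcl2l1 (1 of 8 relatives of Bax) were higher, as were 6 of 17 mitotic genes with 0 lower, at a median of 0.66 on the log2 scale, and Mtap was within 2-fold at -0.81 on the same scale. Against stromal cells of the large tumor the mitotic genes had the other sign, with 2 of 13 higher and 3 lower and a median of -0.37 against 0.10 for all genes. Mtap was there 3.44 times (0.595 to 138) the stromal level, on 1 stromal UMI. Of 11 p53 targets 4 were higher and 1 lower, and of 6 genes of the cyclin D axis 2 were higher, Ccnd1 and Ccnd2, where 16.3% and 14.4% of all genes were higher and lower. Of 2 other CDK inhibitors 1 was lower, and 0 of 5 regulators, 0 of 4 genes of p27 breakdown and 0 of 3 relatives of Bax were 2-fold apart. Against macrophages of the large tumor, 6 of 15 p53 targets were higher and 1 lower, where 27.7% and 11.3% of all genes were, with Perp at 17.4 times (4.76 to 144). Of 6 relatives of Bax, Bcl2l11 and Mcl1 were lower by 4.50 times (2.77 to 7.22) and 3.12 times (2.53 to 3.83), and 3 were higher, Bok by 8.45 times (2.84 to 41.4) and 2 with fewer counts, Bcl2 on 35 UMIs against 2 and Bid on 49 against 0. In the same comparison 3 of 4 genes of p27 breakdown were higher, Cks1b by 3.15 times (2.33 to 4.34), Cul1 by 3.74 times (1.56 to 11.7) and Skp2 on 19 UMIs against 1. Skp2, Bcl2 and Bid fell outside the rule for named genes and were named with their values in view. Of 15 mitotic genes, 7 were higher and 1 lower. Ccnd1 was higher there by 10.1 times (4.61 to 27.8) and Mtap by 9.89 times (1.71 to 397), the latter from 1 macrophage UMI.

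Over the 14 clusters of the medium tumor, the genes whose level followed each member most closely were ranked among 4800 genes by Pearson's r on log2(CPM + 10), as a description, since the clusters share a library and 8 of them are carcinoma cells. Trp53 was most like Cdk6 (0.931), Fubp1 (0.930) and Ccnd1 (0.916), and Cdkn2a most like Cldn6 (0.923), Hmga2 (0.914) and Cdk6 (0.913). Cdkn2b was most like Cdk5 (0.914), Lrrk1 (0.898) and Zdhhc12 (0.897), and Cdkn1a most like Rsrp1 (0.947), Osbpl9 (0.916) and Csrnp1 (0.915). Mdm2 was most like C1qb (0.967), C1qc (0.964) and H2-Eb1 (0.956), genes of macrophages and antigen presentation. Ccng1 followed Pdcd6ip (0.852) and Necap2 (0.851), and Bax followed Ube2a (0.870), Arpc5 (0.852) and Cfl1 (0.849). Cdkn1b had fewer than 500 UMIs and was not ranked.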

How the data were processed

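Freshly harvested KPC tumors were dissociated and sequenced by the authors. The deposited values are UMI counts per gene and cell barcode, whole numbers without normalization, and the submitters' processing notes name Cell Ranger and mm10. The Cell Ranger version, the annotation and the choice of cell barcodes are not given in the sources used here. The 4 technical replicates of a tumor are pooled in its table.

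The members and all gene lists were chosen with earlier results of these data known. Cells of each tumor were clustered with Seurat 5.3.0 in R 4.3.3 (log normalization to 10000, 2000 vst variable genes, 10 principal components, resolution 0.8). The members were left out of the variable genes, where Cdkn2a, Cdkn2b, Cdkn1a and Mdm2 (medium tumor) and Cdkn2b (large tumor) would have entered. Clusters were named for a class when at least 3 of its markers were present, each in at least 10% of its cells and at 25% or more of the level in the highest cluster, and were left unnamed where another class had 60% or more of its markers. Epithelial clusters with 60% or more of the enterocyte or goblet markers were kept apart as intestinal. These thresholds were set after the marker values had been seen. Scrublet, run through scanpy 1.11.5, called 0 cells in the medium and 9 (0.587%) in the large tumor, and no cell was removed.

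UMIs were summed per class or cluster and given as CPM. Sums have exact Poisson intervals, shares of cells exact binomial intervals, and ratios exact conditional binomial intervals, all at 95% and for counting error only. A gene entered a count where both groups together had at least 20 UMIs, and was called at 2-fold. A class at 0 UMIs was set to 3 counts. No P-value was computed, because each tumor is 1 sample and the cell classes could be paired over only 2 tumors. Of a list, the genes named were up to 3 highest and 3 lowest of those 2-fold apart with at least 50 UMIs, members were all named, and the 3 genes of highest r with a member were given among those with at least 500 UMIs. An allele of the model and 1 gene of this ranking are not reported here. Ratios and their intervals were tested on simulated data. TMM factors came from edgeR 4.0.16. Promoter sequences came from RefSeq, where all 8 symbols matched 10 starts.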

Additional observations from a re-analysis of the deposited data

How the results depend on the processing

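Classes were remade with the members among the clustering genes, at resolutions of 0.4 and 1.2, with 20 principal components, with cells classed one by one, with all epithelial clusters as carcinoma cells and without the highest 5% of Scrublet scores. Levels were remade with cells thinned, as a mean over the CPM of single cells, with TMM scaling and with at least 100 UMIs. Chosen after seeing the data were the runs without carcinoma clusters that had a goblet marker but no epithelial marker among their leading genes. Also chosen then were those with the unnamed cluster 1 of the large tumor as carcinoma cells, without cluster 8 of the medium tumor and with a free RNA level taken off. Of 474 ratios of members under these alternatives, 441 stayed within the counting interval of the main value and 33 moved outside it. Intervals on few UMIs were wide. In 0 cases did a 2-fold call turn to the other direction, and a call that fell under 2-fold was not counted as reversed. The counts of members past 2-fold between carcinoma and stromal cells moved from 2 to 0 in both tumors with thinned cells, and the stromal sums then rest on fewer UMIs. For carcinoma cells against macrophages of the medium tumor, the ratio ran from 1.93 to 4.12 for Trp53, from 3.08 to 20.04 for Cdkn2a, from 3.64 to 10.5 for Cdkn2b and from 1.70 to 5.21 for Cdkn1b. The lowest values came with cells classed one by one (Trp53 and Cdkn2a) or resolution 0.4 (Cdkn2b and Cdkn1b), and the cause was not tested. The inverse ran from 3.38 to 5.08 for Cdkn1a and from 5.79 to 8.80 for Mdm2. No stromal cluster formed in the medium tumor at resolution 0.4 or with 20 principal components, so these were not run against stromal cells. No paired analysis was possible because the replicate numbers name technical replicates that are pooled in the tables. This limit concerns pairing the medium with the large tumor by replicate number. The cell classes could be paired within each tumor, but over only 2 tumors, and no such test was run. The large tumor is limited by few counts: 1 Trp53 UMI was seen in its macrophages and 1 in its stromal cells. Neither the DNA, the protein levels nor the mutant allele was measured.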

Other observations

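Cells that entered no class comparison also held the members. In the medium tumor, the mesothelial cluster (74 cells) had 345 CPM (289 to 408) of Cdkn1a, 117 CPM (86.0 to 157) of Mdm2 and 61.3 CPM (39.3 to 91.2) of Cdkn2a. Its Cdkn2a stood at 17.0% of the carcinoma level, where the epithelial markers stood at a median of 24.5% (14.7% to 48.2%). The endothelial cluster (39 cells), with 82.1 CPM (50.2 to 127) of Trp53 and 333 CPM (264 to 413) of Bax, held the epithelial markers at a median of 40.3% of their carcinoma level. The unnamed cluster of 65 cells, which had 10 of 11 epithelial and 9 of 11 macrophage markers, had 247 CPM (197 to 307) of Mdm2 and 217 CPM (169.9 to 274) of Cdkn2a, both between the carcinoma and macrophage levels.

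In the large tumor, the 262 intestinal epithelial cells had 379 CPM (306 to 465) of Cdkn1a and 152 CPM (107 to 210.2) of Mdm2, above the carcinoma cells for both genes, with 12.4 CPM (2.55 to 36.1, 3 UMIs) of Cdkn2a and 4.12 CPM (0.104 to 23.0) of Trp53, on 1 UMI. Their Cdkn2b was 107 CPM (70.0 to 157), so that here Cdkn2b was seen with little Cdkn2a. The unnamed cluster 1, with 275 cells, 2 of 11 epithelial markers and Hmga2 among its leading genes, had 244 CPM (200.2 to 294) of Cdkn2a and 213 CPM (172 to 259.8) of Cdkn2b, with Cdkn1a at 78.3 CPM (54.5 to 109).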
